A study of Mus musculus with 33 samples.

Results

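The genes of the DNA replication machinery were followed across mouse fibroblasts, embryonic stem cells and partially reprogrammed cells with and without RepSox, an inhibitor of the TGF-beta type I receptor kinase. A gene was a member if its symbol in the array annotation belonged to the origin recognition complex, the Mcm family, Cdc6, Cdt1, Gmnn, Cdc7, Dbf4, Cdc45, the GINS complex, the replicative polymerases and primase, replication factor C, replication protein A, Pcna, Fen1, Lig1, Rrm1, Rrm2, Tk1 or Tyms. These were 49 of the 16593 genes annotated on the platform, measured by 77 probes. A probe was kept when its detection p was under 0.05 on at least 3 of 30 arrays. By that filter 66 probes and 45 members were kept, each member represented by its brightest probe, and Orc1, Mcm8, Pola1 and Pole2 were left without a value. Gins1, Gins2 and Rfc3 were not in the annotation used here. A level is a log2 intensity after background correction and quantile normalization, a change is a difference between group means with its standard error (SE), and a member is said to rise or fall where limma's p, adjusted by the Benjamini-Hochberg method over all 10614 genes measured, was under 0.05.

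Total RNA was hybridised to Illumina bead arrays, 3 per group. The groups were the embryonic stem cell lines R1 and V6.5, untreated mouse embryonic fibroblasts (MEF), MEF after 1 week with RepSox, and the line OKMS6 untreated or with RepSox at 10, 24 and 48 h. OKMS6 is a single partially reprogrammed line from virally transduced MEF, and the labels give viral Sox2 for its treated and untreated cells alike. A RepSox iPS line, derived with RepSox in place of viral Sox2, was run on another platform. No time is given for untreated MEF, and the labels allow for cultures with or without irradiated feeders and for FBS or KSR in the medium without saying which had what. Whether the replicates came from separate cultures is not stated, so every p-value here rests on spread between arrays that could be technical.

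DNA replication starts when the origin recognition complex, Cdc6 and Cdt1 load the Mcm2 to Mcm7 helicase onto origins in G1, a step called licensing that geminin (Gmnn) blocks later in the cycle. In S phase the Cdc7 kinase with its activator Dbf4 fires licensed origins, and Cdc45, GINS and Mcm10 turn the loaded helicase into an active one. Polymerase alpha with primase starts each strand, polymerases delta and epsilon extend it on the Pcna clamp that replication factor C loads, replication protein A covers single-stranded DNA, and Fen1 and Lig1 join the lagging strand. Ribonucleotide reductase, thymidine kinase and thymidylate synthase supply deoxynucleotides. Many of these genes are known targets of E2F transcription factors, which Rb family proteins restrain in resting cells.

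Promoter sequence was examined because many of these genes are known E2F targets. Windows taken from RefSeq from 250 bases before to 50 bases after the transcription start (mouse build GRCm38.p6) were found for 43 members, 53 windows in all. E2F-type letters (TTTCGCG, the variant TTTGGCG or the variant TTTCCCG, on both strands) were present in 22 of the 43 members, or 51.2%, against 6.38% of 27025 genes. The letters CCAAT of the box of that name, searched on both strands, were in 58.1% of members and 41.1% of genes, and the letters TTTGAA of the cell cycle homology region, likewise on both strands, were in 16.3% and 20.2%. The 250 bases before the start are printed for 4 licensing genes, 5′ to 3′ in the direction of the gene, with E2F-type letters in capitals. Mcm5 (chr8:75109259-75109508, plus strand), Mcm6 (chr1:128359706-128359955, minus strand) and Cdc6 (chr11:98907901-98908150, plus strand) have matches, and Orc6 (chr8:85299382-85299631, plus strand) has none.
Mcm5: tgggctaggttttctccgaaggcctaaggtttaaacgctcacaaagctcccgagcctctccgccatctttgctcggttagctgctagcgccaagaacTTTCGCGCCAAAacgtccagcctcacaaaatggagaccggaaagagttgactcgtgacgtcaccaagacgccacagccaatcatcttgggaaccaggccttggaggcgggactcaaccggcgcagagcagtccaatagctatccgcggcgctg
Mcm6: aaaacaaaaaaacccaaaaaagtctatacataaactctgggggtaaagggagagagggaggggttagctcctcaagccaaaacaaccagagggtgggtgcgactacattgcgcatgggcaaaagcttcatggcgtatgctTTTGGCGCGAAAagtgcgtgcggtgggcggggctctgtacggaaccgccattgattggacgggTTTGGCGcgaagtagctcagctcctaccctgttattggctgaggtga
Cdc6: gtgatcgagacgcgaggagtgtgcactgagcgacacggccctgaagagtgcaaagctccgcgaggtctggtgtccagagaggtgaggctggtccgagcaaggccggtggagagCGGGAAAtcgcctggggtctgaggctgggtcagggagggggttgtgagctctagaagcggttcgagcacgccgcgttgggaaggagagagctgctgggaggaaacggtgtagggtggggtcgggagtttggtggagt
Orc6: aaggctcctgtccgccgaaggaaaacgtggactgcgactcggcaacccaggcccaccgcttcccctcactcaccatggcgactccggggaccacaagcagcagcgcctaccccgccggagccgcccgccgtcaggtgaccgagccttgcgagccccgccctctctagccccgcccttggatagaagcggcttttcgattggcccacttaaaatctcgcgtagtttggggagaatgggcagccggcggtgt
In Mcm5 the matches began 153 and 148 bases before the start and overlapped, so that they form 1 run of capitals. In Mcm6 the first and second, at 110 and 105 bases, overlapped likewise, and the third began at 47 bases. The single match of Cdc6 began 137 bases before the start. These 4 genes were picked by their matches: Mcm5 and Mcm6 as helicase subunits with several, Cdc6, and Orc6 for having none. They thus say nothing of how often genes that changed carry the letters. Mcm2, which was higher with RepSox than without it at 48 h, had no E2F-type match in its window. Among members with a window, the letters were in 11 of the 27 that rose with RepSox at 48 h (40.7%) and in 7 of the 12 measured that did not (58.3%). A match is a run of letters, not a shown binding site.

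The labels were checked against marker genes, and some arrays stood apart. In R1 cells all 8 pluripotency markers were detected on every array, and the mean log2 level of the list was 11.2 on each. In untreated MEF it was 4.45 to 4.51, with 7 of 8 not detected, and there the 7 measured fibroblast markers averaged 10.1 to 10.2. OKMS6 cells, labelled partially reprogrammed, lay at 5.63 to 5.71 for the pluripotency list when untreated at 10 h, with Nanog, Esrrb, Dppa5a and Dppa4 not detected, and their fibroblast markers averaged 5.07 to 5.09, with Col1a1, Col1a2, Col3a1 and Lum not detected. The first and the third V6.5 array were dim: their mean signals were 66.6 and 79.5, against 94.9 to 429 on the other 28 arrays, and they detected 31.4% and 28.7% of probes against 43.8% to 52.0%. They correlated with the V6.5 array numbered 2 at 0.841 and 0.805, against 0.980 to 0.997 within the other groups. They were left out of the fit, and no V6.5 comparison is given. The deposited series matrix matched the scanner table's own columns for 28 of 30 arrays. Replicate 3 of the untreated and of the RepSox-treated OKMS6 cells at 48 h carried each other's values there. The names of the scanner table were used. Under them, both arrays correlated with the other arrays of their own group at 0.993 to 0.995. Nanog at 48 h then averaged 4.81 (SD 0.085) untreated and 7.67 (SD 0.086) treated, so for this gene each array numbered 3 lay with its own group. The total counts of members called that rest on 48 h are given with and without both arrays. At 48 h both arrays numbered 3 were also brighter than replicates 1 and 2, with mean signals of 304 and 327 against 192 to 209.

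With RepSox at 48 h, most DNA replication genes were higher in OKMS6 cells. Of the 45 members measured, 32 rose and 1 fell, against 32.7% of all 10614 genes called, 15.8% up and 16.9% down. The members' median log2 change was 0.51, and that of all genes was 0.00. The 3 treated arrays lay wholly above the 3 untreated arrays for 34 members and wholly below for 2, Pold4 and Pold2, against 23.5% and 24.2% of all genes. Without both arrays numbered 3, 23 members rose and 1 fell, with a median of 0.48, and with the dim V6.5 arrays added to the fit 17 rose and 1 fell. With the series matrix, in which those arrays have each other's names, 0 members were called, and 0 had an unadjusted p under 0.05. Licensing genes rose in 11 of 14, firing and helicase genes in 5 of 7, polymerase and primase genes in 5 of 10 with 1 fall, clamp and maturation genes in 7 of 10, and nucleotide supply genes in 4 of 4. In RNA from whole cultures, fewer cells of a kind and less of an RNA per cell cannot be told apart.

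**Figure D1:**
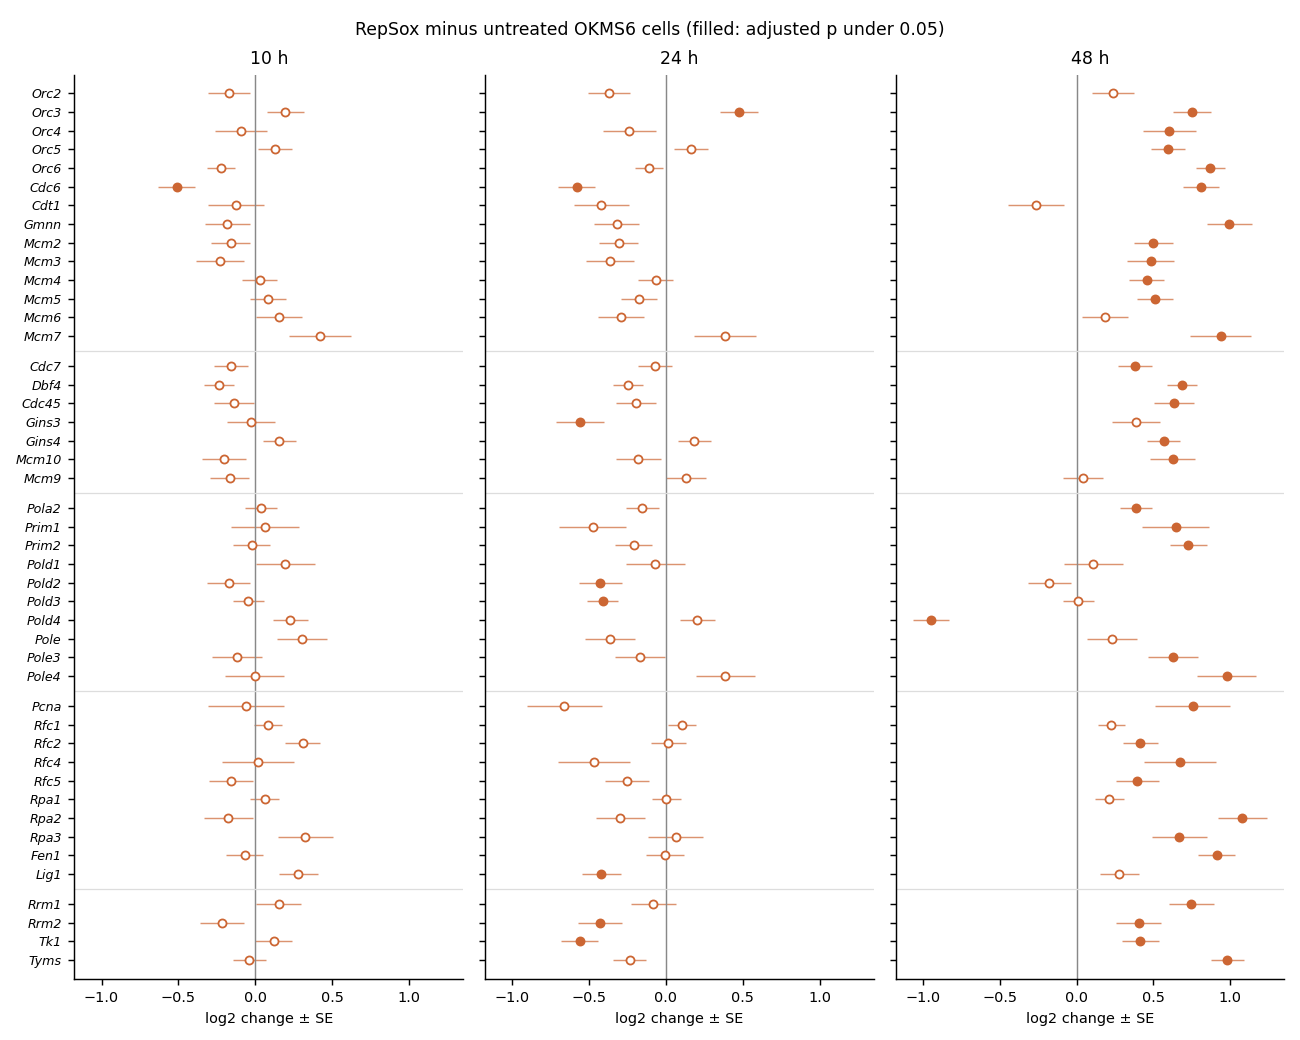
Log2 change with RepSox in OKMS6 cells for each of the 45 measured members at 10, 24 and 48 h, with the standard error as a bar (3 arrays against 3) and members grouped by role between grey lines. Filled points passed an adjusted p of 0.05: 1 at 10 h, 8 at 24 h and 33 at 48 h, of which 32 lie to the right of 0.

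Among the licensing genes, Orc6, a subunit of the origin recognition complex, had the smallest adjusted p. Its log2 level was 9.82, 9.97 and 9.70 on untreated replicates 1 to 3 and 10.79, 10.67 and 10.62 with RepSox, and all treated arrays lay above all untreated ones. It rose by 0.87 ± 0.09 (SE, n = 3 and 3), a 1.83-fold change (adjusted p = 4.5e-08). Cdc6, the helicase loader, was at 7.57, 7.88 and 7.62 untreated and 8.47, 8.41 and 8.63 treated, a rise of 0.81 ± 0.12 with no overlap (adjusted p = 6.1e-06). Gmnn, the inhibitor of licensing, went from 5.38, 5.53 and 5.55 to 6.41, 6.65 and 6.39, and it too rose without overlap (0.99 ± 0.15, adjusted p = 6.8e-06). Orc3, another subunit of the origin complex, was at 6.77, 6.60 and 6.62 and 7.43, 7.41 and 7.39 (0.75 ± 0.12, adjusted p = 2.5e-05). Each of these genes was higher on every treated array. Of the helicase subunits, Mcm7 rose by 0.94 ± 0.20, Mcm5 by 0.51 ± 0.12, Mcm2 by 0.50 ± 0.13, Mcm3 by 0.48 ± 0.16 and Mcm4 by 0.46 ± 0.11. The origin complex subunits Orc4 (0.60 ± 0.17) and Orc5 (0.59 ± 0.11) rose too. Mcm6 did not pass, at 0.18 ± 0.15 (adjusted p = 0.40). Cdt1, the partner of Cdc6 in loading, was at -0.26 (adjusted p = 0.30), and Orc2, detected on 2 of 3 treated and 1 of 3 untreated arrays, at 0.24 (adjusted p = 0.21).

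Among the firing and helicase genes 5 rose. Dbf4, the activator of Cdc7, was at 9.09, 8.98 and 9.10 untreated and 9.82, 9.72 and 9.70 with RepSox, and the groups did not overlap (0.69 ± 0.10, adjusted p = 3.4e-06). Cdc7 itself, the kinase, rose less, by 0.38 ± 0.11 (adjusted p = 0.0093). Gins4, of the GINS complex, stood at 10.13, 10.19 and 10.05 and 10.62, 10.62 and 10.82 (a rise of 0.57 ± 0.11). The treated arrays were again the higher ones throughout. Cdc45, which joins the helicase, was at 8.56, 8.43 and 8.17 against 9.05, 9.06 and 8.95 and rose by 0.63 ± 0.13. For Mcm10, which acts as the helicase starts to move, the levels were 9.70, 9.82 and 9.49 and 10.29, 10.30 and 10.30, a rise of 0.63 ± 0.15 again with no overlap. Gins3 (0.39, adjusted p = 0.059) and Mcm9 (0.04, adjusted p = 0.86, detected on 1 of 3 arrays in each group) did not pass. With the replicate number as a block Gins3 passed as well, which made 34 members called at 48 h.

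The polymerase and primase genes were split, with 5 rises and 1 fall. Prim2, a primase subunit, rose from 7.30, 7.12 and 6.82 to 7.92, 7.80 and 7.71 (0.73 ± 0.12, adjusted p = 3.1e-05). The small epsilon subunits rose too, Pole4 from 6.98, 7.20 and 7.25 to 8.15, 8.29 and 7.92 (0.98 ± 0.19) and Pole3 from 8.05, 7.97 and 7.57 to 8.53, 8.47 and 8.48 (0.62 ± 0.16), both without overlap. Without both arrays numbered 3, Pole3 no longer passed (0.48, adjusted p = 0.076). The other rises in this role were Prim1, the catalytic primase (0.64 ± 0.22), and Pola2, of polymerase alpha (0.39 ± 0.11). Pold4, the smallest subunit of polymerase delta, was the member that fell. It was at 7.72, 7.63 and 7.77 untreated and 6.87, 6.72 and 6.70 with RepSox, lower on each treated array (-0.95 ± 0.12, adjusted p = 3.7e-07). The other delta subunits Pold1 (0.11), Pold2 (-0.18) and Pold3 (0.01) and the catalytic epsilon subunit Pole (0.23) did not pass, with adjusted p from 0.32 to 0.95.

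Of the clamp, single-strand binding and maturation genes, Rpa2, a subunit of replication protein A, had the largest estimated rise of the members over all 6 arrays. It was at 7.59, 7.89 and 7.12 untreated and at 8.74, 8.47 and 8.62 with RepSox, untreated replicate 3 being the lowest (1.08 ± 0.16, 2.11-fold, adjusted p = 6.4e-06). Without both arrays numbered 3 its rise was 0.87, below those of Pole4 (1.13) and Gmnn (1.07), and its second probe rose by 0.59 ± 0.11 over all 6 arrays. Fen1, the flap nuclease, went from 9.45, 9.21 and 8.92 to 10.22, 10.07 and 10.02 (0.91 ± 0.12, adjusted p = 1.3e-06). For Rpa2 and Fen1 every treated array lay above every untreated one. Rpa3 was at 9.87, 9.90 and 10.08 and 10.67, 10.59 and 10.59, a rise of 0.67 ± 0.18 without overlap. Rfc2, of the clamp loader, was at 9.69, 9.65 and 9.53 and 10.13, 10.01 and 9.97 (0.41 ± 0.11). Pcna, the clamp, rose by 0.76 ± 0.25 (adjusted p = 0.019), Rfc4 by 0.67 ± 0.23 and Rfc5 by 0.40 ± 0.14, while Rfc1 (0.23), Rpa1 (0.21) and the ligase gene Lig1 (0.28) did not pass (adjusted p = 0.058, 0.089 and 0.10).

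All 4 nucleotide supply genes rose. Tyms, which makes thymidylate, was at 9.23, 9.48 and 9.13 untreated and 10.27, 10.23 and 10.28 treated (0.98 ± 0.11, 1.97-fold, adjusted p = 6.5e-08). The treated arrays lay close together, above all untreated ones. Rrm1, the large subunit of ribonucleotide reductase, went from 9.33, 9.25 and 8.95 to 9.92, 9.95 and 9.90 (0.75 ± 0.15). Its partner Rrm2 rose by 0.40 ± 0.14 (8.10, 8.10 and 8.41 untreated, 8.60, 8.57 and 8.64 treated), and Tk1, thymidine kinase, by 0.41 ± 0.12 (9.60, 9.47 and 9.37 and 9.86, 9.87 and 9.97). Neither gene overlapped between groups, but both calls were near the threshold. Rrm2 (adjusted p = 0.033) did not pass when any single array except untreated replicate 3 was left out, and Tk1 (adjusted p = 0.0085) did not without both arrays numbered 3 (0.32, adjusted p = 0.12).

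Other genes of the pathway and of its control were counted beside the members. Of 17 measured genes of fork, checkpoint and chromatin partners, 11 rose and 0 fell at 48 h, with a median of 0.55. Of all genes 15.8% rose and 16.9% fell. Dut, which removes dUTP, rose by 1.17 ± 0.13 (adjusted p = 4.5e-08), Tipin, a fork protection factor, by 0.82 ± 0.10, Nasp, a histone chaperone, by 1.09 ± 0.16, and Chek1, a checkpoint kinase, by 0.84 ± 0.13. Of the 20 measured genes of G1/S control 5 were up, 5 down and 10 not called, so that 25% were called in each direction. Ccne2, an E-type cyclin, rose (1.06 ± 0.18), as did E2f1 (0.67 ± 0.13), while the D-type cyclins Ccnd3 (-1.33 ± 0.13) and Ccnd1 (-0.55 ± 0.11) fell.

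Arrest genes and markers of other cell types also differed with RepSox at 48 h. Of the 5 genes of quiescence or arrest, Cdkn1c (-1.07 ± 0.13), Cdkn2b (-0.74 ± 0.14) and Cdkn1a (-0.50 ± 0.12), which encode inhibitors of cyclin-dependent kinases, were lower with RepSox and 0 were higher. The list's mean log2 level was 7.91 to 8.28 on untreated and 7.53 to 7.61 on treated arrays. Of 3 endothelial markers measured, Pecam1 (-3.76) and Esam (-1.69) were lower with RepSox and Tek (0.17) did not pass, and the list's mean level was 8.12 to 8.32 untreated and 6.42 to 6.51 treated. Pecam1 was lower at 10 h (-2.25) and 24 h (-3.29) too, Tek was higher at 10 h (0.45), and the others did not pass at those times. The pluripotency list was called in both directions, with Nanog (2.85) and Dppa5a (2.13) higher, Tdgf1 (-2.73) and Pou5f1 (-1.10) lower and Utf1 at least 1.52-fold lower, and 3 of 8 not called. Its mean level was 6.003 to 6.181 untreated and 6.114 to 6.190 treated, with Esrrb and Dppa4 detected on no array. Of 4 smooth muscle markers Acta2 rose (2.14) and Mylk was at least 4.79-fold lower, and the list was at 5.89 to 6.05 and 5.86 to 5.88, with Myh11 and Tagln not detected. Of 7 fibroblast markers Thy1 fell (-1.27), and the list was at 4.91 to 4.96 and 4.71 to 4.81, with Col1a1, Col1a2, Col3a1 and Lum not detected. Adipocyte markers were detected on 0 OKMS6 arrays. The part of these genes in the members' difference was not tested.

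Without RepSox, most DNA replication genes fell in OKMS6 cells between 24 and 48 h. In that step 27 members fell and 1 rose, against 30.6% of all genes called (14.6% down, with 1703 genes up), and the median member changed by -0.60 against -0.01 for all genes. The 48 h arrays lay wholly below the 24 h arrays for 36 members and wholly above for 1, against 22.3% and 23.2% of all genes. Without both arrays numbered 3 the counts were again 27 and 1, and with the series matrix they were 16 and 1. Licensing genes fell in 8 of 14, firing and helicase genes in 5 of 7, polymerase and primase genes in 4 of 10 with 1 rise, clamp and maturation genes in 6 of 10 and nucleotide supply genes in 4 of 4. A moderated F test over 10, 24 and 48 h called 31 of the 45 members, against 45.0% of all genes, and 28 without both arrays numbered 3. From 10 to 24 h Tk1 was the single member that changed (0.47 ± 0.12, adjusted p = 0.012), against 10.7% of all genes.

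The helicase subunits Mcm2 to Mcm5 had the smallest adjusted p among the licensing genes of the untreated cells. Mcm3 was at 8.13, 8.24 and 8.72 at 24 h and 7.09, 7.25 and 6.84 at 48 h, a change of -1.31 ± 0.16 (adjusted p = 3.6e-07). Mcm2 was at 9.32, 9.22 and 9.54 and then at 8.34, 8.55 and 7.98 (-1.07 ± 0.13). Mcm5 changed by -1.02 ± 0.12 and Mcm4 by -0.93 ± 0.11. All 4 were lower on every 48 h array than on any 24 h array. Mcm7 (-0.89), Cdc6 (-0.95), Orc6 (-0.74) and Orc2 (-0.56) fell as well, while Mcm6 (-0.23), Cdt1 (-0.40), Gmnn (-0.08), Orc3 (0.01), Orc4 (-0.22) and Orc5 (-0.17) did not pass.

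All 4 nucleotide supply genes fell in this step, and the other roles fell in part. Tyms changed by -1.02 ± 0.11, Rrm2 by -1.02 ± 0.14, Tk1 by -0.92 ± 0.12 and Rrm1 by -0.80 ± 0.15. Of the clamp and maturation genes, Fen1 fell most (-1.09 ± 0.12, adjusted p = 1.3e-07), followed by Rpa2 (-0.96), Lig1 (-0.79), Rfc5 (-0.72), Rfc2 (-0.69) and Rpa1 (-0.67). Pcna did not pass (-0.36, adjusted p = 0.30). Firing and helicase genes that fell were Mcm10 (-0.88), Cdc45 (-0.66), Gins3 (-0.60), Dbf4 (-0.57) and Cdc7 (-0.43), and of the polymerase and primase genes Pola2 (-0.81), Pole (-0.66), Prim2 (-0.63) and Pold3 (-0.58) fell. Pold4 went the other way, from 6.64, 6.56 and 6.33 to 7.72, 7.63 and 7.77 (1.20 ± 0.12, adjusted p = 1.5e-08). Of the fork partners 13 of 17 fell in the same step and 0 rose, among them Dut (-1.20) and Tipin (-0.86). In the arrest list Cdkn1c rose by 1.18 ± 0.13 and Cdkn2b by 1.02 ± 0.14, and the list's mean level was 7.33 to 7.57 at 24 h against 7.91 to 8.28 at 48 h. Its part was not tested.

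**Figure D2:**
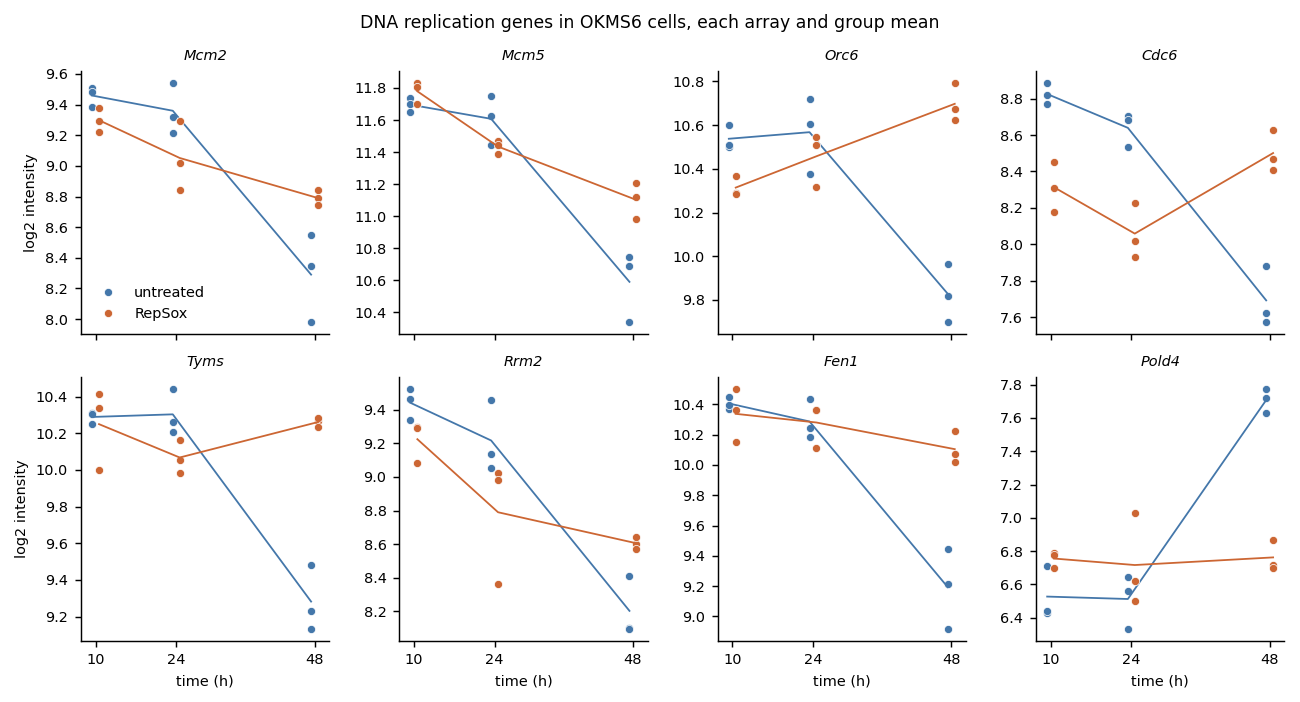
Log2 intensity of 8 members in OKMS6 cells at 10, 24 and 48 h (time axis to scale, with the treatments set slightly apart), each point 1 array and each line the group means. In untreated cells 7 of the 8 fall between 24 and 48 h and Pold4 rises, while Pold4 with RepSox lies between 6.70 and 6.87 at 48 h.

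With RepSox the same step, a comparison added after the untreated cells had been seen, gave calls in both directions. Between 24 and 48 h 8 members rose and 4 fell, against 27.6% of all genes called (13.2% up, 14.4% down), and the median member changed by 0.05. The share of members called was thus near that of all genes. The counts were 10 and 2 without both arrays numbered 3, and without RepSox replicate 1 at 24 h they were 4 and 3. With the series matrix they were 1 and 5, with a median of -0.10, with array weights 16 and 9, and with all 30 arrays in the fit 4 and 1, so the balance of directions depended on these choices. Gmnn rose by 1.23 ± 0.15 (adjusted p = 1.5e-06), from 5.01, 5.16 and 5.58 to 6.41, 6.65 and 6.39. Every 48 h array of Gmnn lay above the 24 h arrays. Pcna (1.05), Rfc4 (1.03), Prim1 (0.78), Rpa3 (0.69), Orc4 (0.63), Cdc6 (0.44) and Dbf4 (0.37) rose too, and Rpa1 (-0.46), Mcm3 (-0.46), Mcm4 (-0.41) and Mcm5 (-0.33) fell. Pold4 did not pass (0.05 ± 0.12, adjusted p = 0.83). With the arrays scaled to a common median in place of quantile normalization, 19 members rose and 0 fell, and Mcm4 was at 0.025. From 10 to 24 h with RepSox, Lig1 was the single member that changed (-0.62 ± 0.13, adjusted p = 0.0015), against 10.0% of all genes.

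**Figure D3:**
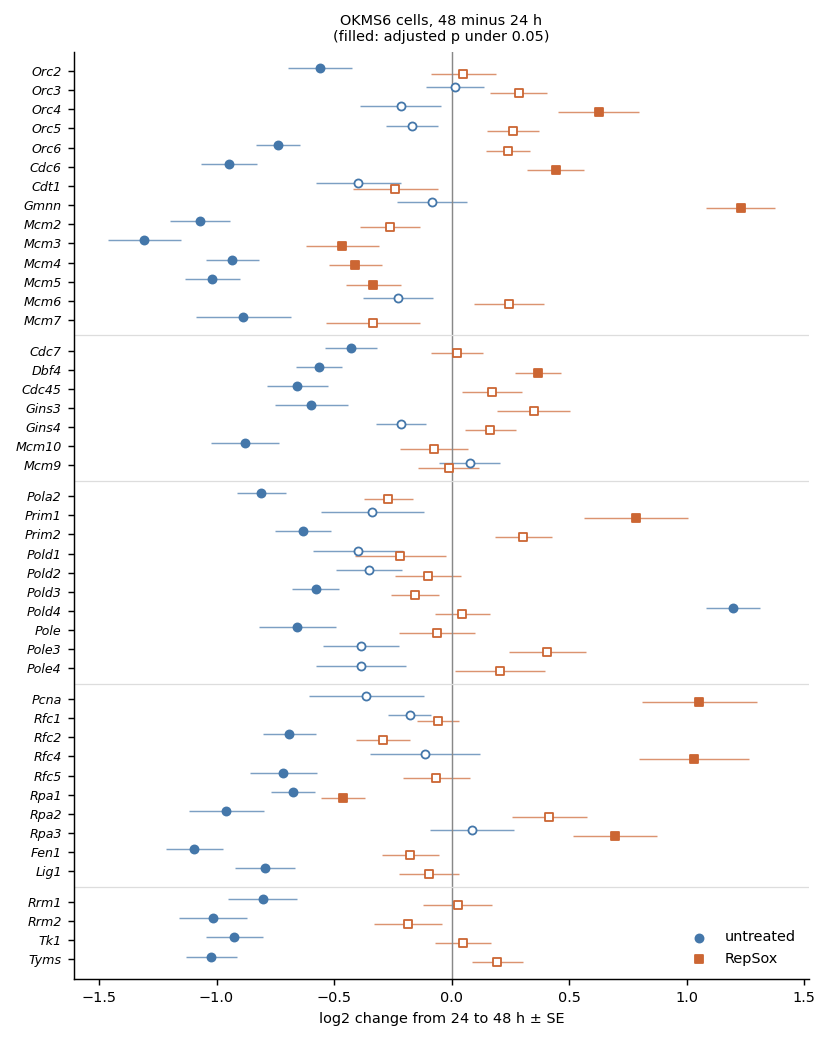
Log2 change from 24 to 48 h with its standard error for each measured member, in untreated (blue circles) and RepSox-treated (orange squares) OKMS6 cells, 3 arrays at each time. Filled points passed an adjusted p of 0.05. The untreated points lie mostly left of 0 (27 falls and 1 rise), and the treated points are spread on both sides (8 rises and 4 falls).

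The difference between these steps was tested directly. The RepSox effect at 48 h exceeded that at 24 h for 30 members and was below it for 1, against 21.1% of all genes called (8.94% above, 12.2% below), with a median difference of 0.68. Leaving out both arrays numbered 3 gave 26 and 1, all 30 arrays in the fit gave 14 and 1, and the series matrix gave 1 and 0. Cdc6 differed most clearly (1.39 ± 0.17, adjusted p = 1.8e-06), since it was lower with RepSox at 24 h and higher at 48 h. Pcna (1.42), Rpa2 (1.37), Gmnn (1.31), Tyms (1.21), Prim1 (1.12), Orc6 (0.98), Tk1 (0.97), Gins3 (0.95), Prim2 (0.94), Dbf4 (0.93) and Fen1 (0.92) differed in the same direction, and Pold4 in the other (-1.15). The other 18 differences above 0 that passed lay between 0.42 (Pold3) and 1.14 (Rfc4), with Mcm2 (0.81), Mcm3 (0.84), Mcm5 (0.68), Mcm10 (0.80), Cdc45 (0.83), Pola2 (0.54), Lig1 (0.70), Rrm1 (0.83) and Rrm2 (0.83) among them. Over all 3 times the F test of the RepSox effect called 30 members, against 26.1% of all genes, 19 without both arrays numbered 3 and 0 with the series matrix. Between 10 and 24 h the effect changed for 2, Tk1 (-0.68) and Lig1 (-0.70), against 2.77% of all genes.

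At 10 h Cdc6 was the single member called, against 12.6% of all genes, and the median member was at -0.03. Cdc6 was at 8.77, 8.82 and 8.89 untreated and 8.18, 8.31 and 8.45 with RepSox, lower on all 3 treated arrays (-0.51 ± 0.12, adjusted p = 0.0044). Orc6 (-0.22), Dbf4 (-0.24), Mcm7 (0.42), Rfc2 (0.31) and Pold4 (0.23) were among those that did not pass. In the arrest list 3 of 5 genes were higher at this time, Ccng2 (1.05 ± 0.23), Cdkn2b (0.52 ± 0.14) and Cdkn1b. Cdkn1b was detected on 0 untreated arrays and was at least 1.22-fold higher. At 24 h 0 of the 5 were called. With array weights 5 members rose and 2 fell at 10 h, and with all 30 arrays in the fit 0 were called (limma, 1 at an unadjusted p under 0.05).

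At 24 h 7 members fell and 1 rose, against 24.0% of all genes called (11.0% down, 13.0% up), so that 17.8% of members were called. The members' median was -0.21 against 0.00. Cdc6 (-0.58 ± 0.12, adjusted p = 6.7e-04), Tk1 (-0.56 ± 0.12), Gins3 (-0.56 ± 0.16), Pold2 (-0.43 ± 0.14), Rrm2 (-0.43 ± 0.14), Lig1 (-0.42 ± 0.13) and Pold3 (-0.41 ± 0.10) fell, and Orc3 rose (0.48 ± 0.12). Pcna was at 8.39, 8.24 and 8.22 untreated and 7.19, 7.20 and 8.47 treated. Treated replicate 3 lay above the untreated arrays while the others lay below, and the difference did not pass (-0.66, adjusted p = 0.051). Orc2 (-0.37), Prim1 (-0.48) and Rfc4 (-0.47) did not pass either. Without treated replicate 3 at 24 h, 16 members were called, 15 of them lower. Array weights gave 6 rises and 23 falls, all 30 arrays in the fit 0 and 2, and the series matrix 0 and 3. With median scaling 0 members rose and 34 fell, where the median of all genes was itself at -0.18 and that of the members at -0.53, so the number of falls at 24 h depended on these choices. Of the 20 genes of G1/S control 12 fell and 4 rose at 24 h, among them Rb1 (0.88) and E2f1 (0.63) up and Ccnd3 (-0.68) and Cdk6 (-0.50) down.

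In fibroblasts after 1 week with RepSox, DNA replication genes were called in both directions. Of the 45 members 8 rose and 2 fell, against 28.3% of all genes called (12.8% up, 15.5% down), and the median member was at 0.10 against -0.02. The share of members called was 22.2%. With array weights 22 rose and 3 fell, with all 30 arrays in the fit 2 and 1, and with the series matrix 6 and 0. The shares of all genes called in these settings are not given here, so these counts cannot be set against them. Rfc1, the large subunit of the clamp loader, was at 7.68, 7.54 and 7.51 in untreated and 8.04, 8.08 and 8.08 in treated fibroblasts, apart on every array (0.49 ± 0.09, adjusted p = 1.2e-04). Rrm1 rose by 0.58 ± 0.15 (8.01, 8.02 and 7.94 untreated, 8.33, 8.44 and 8.94 treated), with treated replicate 3 the highest. Neither gene overlapped between the groups. Pola2 (5.68, 5.69 and 5.53 and 5.98, 6.08 and 6.04) rose by 0.40 ± 0.11 and Prim2 (5.81, 5.94 and 5.64 and 6.15, 6.11 and 6.32) by 0.40 ± 0.12. The remaining rises were Pole (0.46), Pold2 (0.42), Cdc7 (0.37) and Orc5 (0.36). Of these, Cdc7 overlapped between the groups, at 6.65, 6.39 and 6.65 untreated and 7.01, 7.17 and 6.61 treated.

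The members that fell in fibroblasts were Pold4 and Dbf4. Pold4 was at 8.25, 8.15 and 8.20 untreated and 7.50, 7.62 and 7.82 treated (-0.55 ± 0.12, adjusted p = 5.3e-04), and Dbf4 at 7.88, 7.86 and 7.71 and 7.37, 7.46 and 7.48 (-0.38 ± 0.10, adjusted p = 0.0035), neither with overlap. Tyms (-0.28), Cdc6 (0.31), Fen1 (0.31), Mcm3 (0.36), Orc6 (0.21), Rpa2 (0.28) and Mcm10 (0.23) did not pass, nor did Tk1 (-0.03), Rrm2 (0.10), Gins3 (-0.09) and Rfc5 (-0.27). Treated replicate 3 stood apart from replicates 1 and 2 for several members. Pcna was at 7.76, 7.50 and 6.67 against 7.11, 6.94 and 7.15 untreated, Cdt1 at 7.08, 7.05 and 6.03 against 6.79, 6.90 and 6.78, and Pold1 at 7.34, 7.37 and 6.17 against 7.07, 7.11 and 7.05. Without that array 11 members were called, and Orc5 (0.21, adjusted p = 0.15), Prim2 (0.33, adjusted p = 0.068) and Pold2 (0.27, adjusted p = 0.20) were not among them. Of the fork partners 0 of 17 were called, against 28.3% of all genes.

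Cell type markers, those of fibroblasts included, changed with the same treatment. All 3 measured adipocyte markers rose, Adipoq at least 222-fold from below detection, Lpl by 4.21 ± 0.11 and Pparg by 2.94 ± 0.10, and the list's mean log2 level was 6.10 to 6.22 untreated and 11.0 to 11.6 treated. Of 4 smooth muscle markers, Myh11 and Mylk rose by 4.30 ± 0.11 and 3.22 ± 0.17, Acta2 (-0.09) and Tagln (-0.23) did not pass, and the list's mean level was 9.52 to 9.60 untreated and 11.2 to 11.6 treated. Of 7 fibroblast markers Prrx1 (1.13), Dcn (1.01) and Lum (0.37) rose, Col1a2 (-2.83) and Col3a1 (-0.73) fell, and the list was at 10.1 to 10.2 untreated and 9.68 to 10.3 treated. Of 3 endothelial markers Esam was at least 3.48-fold higher, from below detection, and the list was at 4.499 to 4.667 and 5.13 to 5.30. In the arrest list Cdkn1c rose by 1.95 ± 0.13 and Cdkn1a fell (-0.39 ± 0.12). The part of these genes in the members' differences was not tested.

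The effect of RepSox on DNA replication genes was lower in fibroblasts at 1 week than in OKMS6 cells at 48 h for most of the members where it differed. It differed between the cell types for 18 members, 17 of them lower in fibroblasts, against 33.3% of all genes (16.9% lower, 16.4% higher). When both arrays numbered 3 were left out the counts were 10 lower and 1 higher, and with the series matrix 0 and 1. All 30 arrays in the fit gave 6 and 0, and median scaling called 9. Tyms (-1.26 ± 0.15, adjusted p = 3.1e-07), Dbf4 (-1.07 ± 0.14), Pole4 (-1.16 ± 0.27), Gmnn (-0.90 ± 0.21), Orc3 (-0.79 ± 0.17), Cdc45 (-0.69 ± 0.18) and Orc6 (-0.66 ± 0.13) differed, and so did Rpa2 (-0.80), Fen1 (-0.60), Rfc5 (-0.67), Rfc2 (-0.49), Pole3 (-0.67), Gins4 (-0.52), Orc4 (-0.74), Mcm2 (-0.54), Cdc6 (-0.50) and Tk1 (-0.44). Without both arrays numbered 3, Orc4, Gins4, Pole3, Rpa2, Rfc2 and Tk1 kept their direction and no longer passed (adjusted p from 0.053 to 0.18), and Tk1 did not pass with the replicate block either. With the series matrix Rpa2 (0.28, adjusted p = 0.79) and Fen1 (0.14, adjusted p = 0.90) were above 0. Pold2 was the one with the higher effect in fibroblasts (0.59 ± 0.20). For Pold4, lower with RepSox in both cell types, the difference did not pass (0.39 ± 0.16, adjusted p = 0.069). Cell type and length of treatment cannot be told apart here.

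DNA replication genes were far higher in R1 embryonic stem cells than in fibroblasts. R1 cells exceeded MEF for 38 members and lay below for 4, against 70.1% of all genes called (35.9% up, 34.3% down), with a member median of 1.77 against -0.01. The 6 fibroblast arrays were the dimmest in the fit, with mean signals of 94.9 to 113 against 374 to 429 in R1 and 147 to 327 in OKMS6 cells, and the part of this in the differences was not tested beyond the scalings. Arrays did not overlap for 37 members higher and 4 lower, against 39.1% and 38.3% of all genes. Mcm10 was at 10.19, 10.15 and 10.33 in R1 and 6.51, 6.27 and 6.10 in MEF (3.93 ± 0.15, adjusted p = 1.4e-18), and Mcm5 at 11.58, 11.63 and 11.95 and 7.88, 7.88 and 7.92 (3.83 ± 0.12). Cdt1 (3.07 ± 0.18), Mcm3 (2.96 ± 0.16), Mcm2 (2.86 ± 0.13), Orc6 (2.84 ± 0.09), Pold2 (2.79 ± 0.14) and Orc5 (2.64 ± 0.11) were higher too. The groups were far apart for each. Orc6 ranged from 11.40 to 11.60 in R1 and from 8.64 to 8.70 in MEF, and Orc5 from 9.99 to 10.21 and 7.36 to 7.50. Mcm2 ranged from 9.36 to 9.63 in R1 and from 6.52 to 6.75 in MEF.

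Firing, polymerase, clamp and nucleotide genes followed the same order. Cdc7 was at 9.02, 8.87 and 9.01 in R1 and 6.65, 6.39 and 6.65 in MEF (2.41 ± 0.11), Cdc45 at 8.01, 8.18 and 8.33 and 5.95, 5.90 and 5.82 (2.28 ± 0.13), and Dbf4 at 9.72, 9.53 and 9.50 and 7.88, 7.86 and 7.71 (1.77 ± 0.10). Pola2 (7.62, 7.82 and 7.86, against 5.68, 5.69 and 5.53), Pold3 (8.34, 8.25 and 8.49, against 6.57, 6.47 and 6.54) and Prim2 (7.58, 7.65 and 7.39, against 5.81, 5.94 and 5.64) were higher in R1 by 2.13, 1.84 and 1.74. Fen1 (9.67, 9.76 and 9.93, against 7.57, 7.36 and 7.41), Lig1 (9.23, 9.16 and 9.44, against 7.06, 6.97 and 7.02) and Rfc5 (9.13, 9.09 and 9.29, against 6.87, 6.68 and 6.69) were higher by 2.34, 2.26 and 2.42, and Rfc1 (9.13, 9.22 and 9.21, against 7.68, 7.54 and 7.51) by 1.61. All 10 clamp and maturation genes passed, none with overlap. Tyms (1.83 ± 0.11), Tk1 (1.58 ± 0.12) and Rrm1 (0.90 ± 0.15) were higher, while Rrm2, at 7.33, 7.55 and 7.54 in R1 and 7.37, 7.25 and 7.29 in MEF, did not pass (0.17, adjusted p = 0.30). Gmnn was detected on no MEF array and was at least 2.09-fold higher in R1, and Orc2 likewise at least 1.44-fold. Lower in R1 were Pold4 (-1.41 ± 0.12), at 6.75, 6.87 and 6.75 in R1 and 8.25, 8.15 and 8.20 in MEF, and also Orc3 (-0.55 ± 0.12), Orc4 (-0.42 ± 0.17) and the Mcm6 probe described among the last results.

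**Figure D4:**
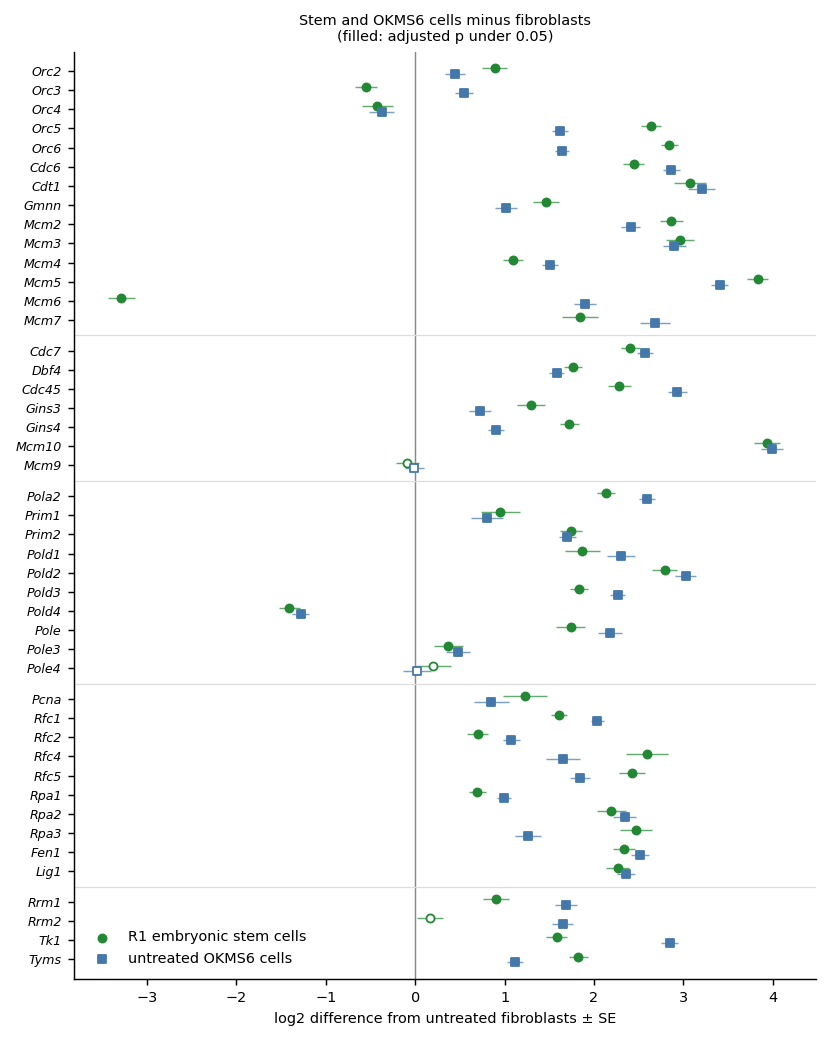
Log2 difference from untreated fibroblasts with its standard error for each measured member, in R1 embryonic stem cells (green circles, 3 arrays) and untreated OKMS6 cells (blue squares, 9 arrays over 3 times). Filled points passed an adjusted p of 0.05. Nearly all members lie right of 0. Of the members called in both lines, Pold4 and Orc4 lie left of 0 in both. Orc3 and the brightest Mcm6 probe lie left of 0 in R1 and right of it in OKMS6 cells.

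Untreated OKMS6 cells, averaged over the 3 times, exceeded MEF for 41 members and lay below for 2, against 71.7% of all genes called (38.8% up, 32.8% down), with a median of 1.69 against 0.05, and the counts were the same without both 48 h arrays numbered 3. The largest differences were Mcm10 (3.99 ± 0.12), Mcm5 (3.41 ± 0.10), Cdt1 (3.20 ± 0.15), Pold2 (3.03 ± 0.11), Cdc45 (2.93 ± 0.11), Mcm3 (2.90 ± 0.13), Cdc6 (2.86 ± 0.10) and Tk1 (2.84 ± 0.10). Pola2 (2.59), Cdc7 (2.57), Fen1 (2.52), Pold3 (2.26) and Rfc1 (2.04) were also higher, as was Rrm2 (1.65 ± 0.12). Pold4 (-1.28 ± 0.09) and Orc4 (-0.37 ± 0.14) were lower. With median scaling the median of all genes shifted to 0.42 here and to 0.52 in R1 against MEF, and the member medians to 2.62 and 2.68, so the members lay above the shift in both. The R1 and OKMS6 comparisons share the MEF arrays.

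Set against R1 directly, OKMS6 cells were higher for 16 members and lower for 13, against 65.3% of all genes called (34.1% up, 31.2% down), a share of members (64.4%) near that of all genes. The counts were 17 and 13 without both 48 h arrays numbered 3. Rrm2 (1.48 ± 0.12), Tk1 (1.26 ± 0.10), Orc3 (1.09 ± 0.10), Mcm7 (0.84 ± 0.16) and Rrm1 (0.78 ± 0.12) were higher in OKMS6 cells, and so was the brightest Mcm6 probe (5.18 ± 0.12). Orc6 (-1.20 ± 0.08), Rpa3 (-1.20 ± 0.15), Orc5 (-1.02 ± 0.09), Rfc4 (-0.94 ± 0.19) and Gins4 (-0.82 ± 0.09) were lower. For Tyms the probes disagreed: the brightest was lower in OKMS6 cells (-0.71 ± 0.09) and a second as well (-0.68 ± 0.12), whereas ILMN_2441899 (0.32 ± 0.12) was called higher. ILMN_2434519, detected on 0 of 3 R1 arrays and, among untreated OKMS6 arrays, on the 24 h arrays alone, was not used for this. At 48 h with RepSox all 5 Tyms probes were above 0 and 4 of them passed, ILMN_2434519 among these, although it was detected on 0 untreated arrays there.

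The level of Mcm6, a helicase subunit, depended on the probe. ILMN_1217331, the brightest of its 4 probes over all arrays, was at 5.75, 5.42 and 5.79 in R1 and 8.954, 8.999 and 8.863 in MEF. It was thus lower in R1 (-3.29 ± 0.15, adjusted p over all probes = 1.4e-16). On the bright V6.5 array, replicate 2, the same probe was at 10.13. The probe ILMN_1233857 went the opposite way, with 9.11, 9.11 and 9.26 in R1 and 6.78, 6.65 and 6.71 in MEF (2.45 ± 0.15). ILMN_2803399 was likewise higher in R1, at 10.39, 9.89 and 10.27 against 7.43, 7.37 and 7.19 (2.85 ± 0.19), and ILMN_1236125 did not pass (0.25 ± 0.24, adjusted p = 0.36). With the mean over the probes, Mcm6 was higher in R1 by 0.57. In OKMS6 against MEF the 4 probes were called in 1 direction, from 0.85 ± 0.19 to 2.89 ± 0.16, and with RepSox at 48 h 0 of the 4 passed. Mcm6 was the single member with several probes for which probes were called in opposite directions between R1 and MEF, of 13 such members.

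**Figure D5:**
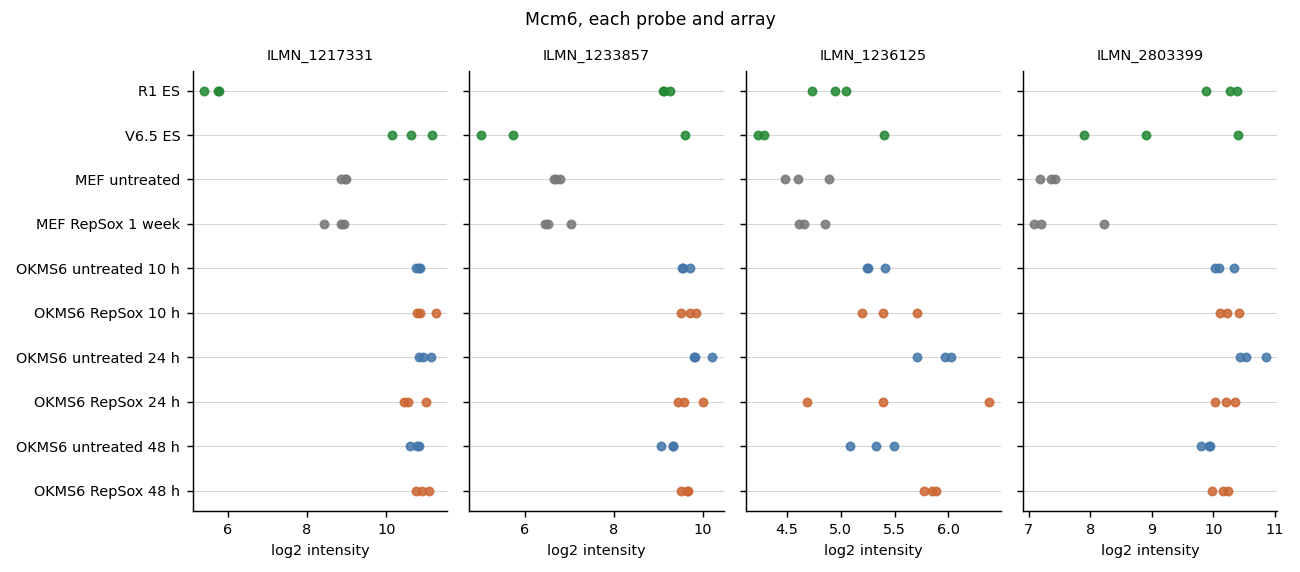
Log2 intensity of the 4 Mcm6 probes on each of the 30 arrays, by group, with 1 point per array. In R1 the probe ILMN_1217331 lies between 5.42 and 5.79, under its MEF values of 8.863 to 8.999, while ILMN_1233857 and ILMN_2803399 lie higher in R1 than in MEF.

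In the RepSox iPS line, on its own platform of 24613 probes, 49 genes of the rule had 71 probes. They are not the same 49 as the members: Gins2 and Rfc3 had probes there, and Mcm3 and Rfc2 did not. By the probe detected most often, 43 genes were detected on all 3 arrays. Gins2, Pola1 and Pole2 were detected on 0 arrays, Orc1 and Mcm9 on 1 and Mcm8 on 2. Mcm5 was at 11.73, 12.03 and 11.97, Orc6 at 11.63, 11.38 and 11.46 and Mcm2 at 10.41, 10.67 and 10.26 on the 3 arrays. The Mcm6 probe ILMN_1217331, low in R1, was at 11.69, 11.88 and 11.81 here. Platform and cell line cannot be told apart, so these levels were compared with no other group.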

How the data were processed

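Per the labels, 33 arrays fell in 11 groups of 3, with the replicate number in each title. The authors deposited a scanner table that gives, per the file headers, an average intensity on a linear scale and a detection p-value for each of 25697 probes on 30 arrays, and another of 24613 probes for the iPS arrays. The submitters' processing notes name BeadStudio without a version. A series matrix of processed intensity was deposited too and served as an alternative. For its steps, no description was found in the sources used here. The number of arrays limits the precision of the values.

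Intensities were background corrected (from the detection p-values, offset 16) and quantile normalized over 30 arrays with neqc of limma 3.58.1 in R 4.3.3, and are given as log2. The filter was a detection p under 0.05 on 3 or more arrays, which kept 15635 probes. Each gene was read from its brightest probe on average, named from GEO's platform annotation (23978 probes had 1 symbol and 1719 were unlisted). All 49 members were found in RefSeq by Entrez identifier. A mean for each of 10 groups was fitted to 28 arrays with lmFit and eBayes (18 residual and 6.95 prior degrees of freedom). Tests are two-sided, with Benjamini-Hochberg adjustment over 10614 genes or, for single probes, over the probes kept. Folds called "at least" set the brighter group against, on each array, the dim probe or the lowest signal detected, whichever was higher. Deviations of same-numbered treated and untreated arrays correlated positively but weakly at 48 h (r of 0.22, 0.10 and 0.34) and in fibroblasts (r of 0.06, 0.12 and 0.21). At 10 h (r of -0.005, 0.017 and 0.017) and 24 h (r of -0.21, 0.16 and -0.32) r was not positive for every number. These values do not settle whether the numbers mark pairs.

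The members and lists were chosen with earlier results of these data known. In each comparison the members named, per role, were the 4 with the smallest adjusted p, the largest rise and fall, and any whose probes were called in opposite directions. Further members are named to account for the list, after their values were seen. Alternatives were all 30 arrays, the series matrix, median scaling, no background correction, array weights, other detection filters, the mean over a gene's probes, the replicate block, and each replicate left out. The fit with array weights took all 30 arrays, the dim V6.5 arrays included. Counts under an alternative are of members alone, without the share of all genes called in the same setting. A change in such a count may therefore be shared by all genes. The fit was tested on simulated data.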

Additional observations from a re-analysis of the deposited data

Results flagged for a closer look

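For 18 of 45 members the effect of RepSox in fibroblasts (1 week) was not that in OKMS6 cells (48 h), by a test of the difference itself. It was lower in fibroblasts for 17 and higher for 1. Of all genes 33.3% were called, 16.9% lower and 16.4% higher. The difference, fibroblasts minus OKMS6 cells, was -1.26 for Tyms, -1.07 for Dbf4 and -0.66 for Orc6. In OKMS6 cells treated arrays lay above untreated ones for these genes, and in fibroblasts Tyms was at -0.28 and did not pass, Dbf4 fell by 0.38 and Orc6 was at 0.21 and did not pass. Without both 48 h arrays numbered 3 the count was 11, and 10 of 16 named members kept the call. With all 30 arrays in the fit the count was 6, and with the series matrix 1. The shares of all genes in these settings are not given here. How much of the difference between the cell types comes with the length of treatment was not tested.

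Within OKMS6 cells the RepSox effect differed between 48 and 24 h for 31 members, again by a test of the difference. It was above that at 24 h for 30 and below for 1. Of all genes 21.1% were called, 8.94% above and 12.2% below. The difference was 1.39 for Cdc6, 1.21 for Tyms and 0.98 for Orc6. Cdc6 was lower with RepSox at 24 h (-0.58) and higher at 48 h (0.81). Without both arrays numbered 3 the count was 27, and the 20 named members that had passed were all still called. With all 30 arrays in the fit the count was 15, and with the series matrix, where those arrays have each other's names, it was 1.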

How the results depend on the processing

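With each replicate left out in turn, the members called were 1 to 2 at 10 h, 6 to 16 at 24 h, 28 to 32 at 48 h, 7 to 11 in RepSox-treated fibroblasts, 40 to 41 for R1 and 42 to 43 for OKMS6 cells against fibroblasts, and 27 to 30 for OKMS6 cells against R1. They were 28 to 30 for untreated cells over time, 23 to 34 for the RepSox effect over time, 13 to 19 for fibroblasts against OKMS6 cells, 28 to 29 and 7 to 16 for the step from 24 to 48 h untreated and treated, and 26 to 31 for the effect in that step. The 2 calls at 10 h came without treated replicate 3, the 16 at 24 h without treated replicate 3, and the 7 in the treated step without treated 24 h replicate 1. With all 30 arrays in the fit the counts were 0 at 10 h (limma, 1 at an unadjusted p under 0.05), 2 at 24 h, 18 at 48 h, 3 in fibroblasts, 15 for the effect over time, 6 for fibroblasts against OKMS6 cells, 5 for the treated step and 15 for the effect in that step. With the series matrix they were 3 at 24 h, 0 at 48 h (limma, 0 at an unadjusted p under 0.05), 6 in fibroblasts, 18 for untreated cells over time, 0 for the effect over time (7 at an unadjusted p under 0.05), 1 for fibroblasts against OKMS6 cells, 17 and 6 for the untreated and treated step, and 1 for the effect in that step. Without both 48 h arrays numbered 3 the matrix gave 20 at 48 h, 17 for the effect over time and 11 for fibroblasts against OKMS6 cells, and the scanner values gave 19 for the effect over time and 11 for fibroblasts against OKMS6 cells. Median scaling gave 34 at 24 h, 9 for fibroblasts against OKMS6 cells and 19 for the treated step. Array weights gave 7 at 10 h, 29 at 24 h (6 up, 23 down), 25 in fibroblasts (22 up, 3 down) and 25 for the treated step. These single values changed sign. With the series matrix Rpa2 was at 0.28 and Fen1 at 0.14 for fibroblasts against OKMS6 cells, with median scaling Mcm4 was at 0.025 in the treated step, and with the mean over probes Mcm6 was at 0.57 for R1 against fibroblasts. The causes were not tested, and the shares of all genes called in each setting are not given beside these counts. With the replicate block the counts were 1, 8, 34 and 11 for RepSox at 10 h, 24 h, 48 h and in fibroblasts, 42, 43 and 29 for the cell types, 31 and 33 over time, 17 for fibroblasts against OKMS6 cells, and 29, 15 and 30 for the steps. At 48 h, where deviations of same-numbered arrays correlated weakly and positively, the block gained Gins3 and lost 0 members. In fibroblasts, where the correlations were weak and positive too, the block gained Tyms. The block lost Tk1 for fibroblasts against OKMS6 cells and Orc5 for the effect in the step. Over time it lost Rfc1 and gained Pole4 untreated, and it gained Pold3, Pole and Orc3 for the effect. In the steps it gained Pole3 untreated, and Rfc2, Pole3 and Prim2 treated. Of 3 same-numbered arrays, 1 correlated best with its own number at 10 and 24 h and 2 at 48 h and in fibroblasts. Members near background, Orc2 and Mcm9 among them, are limited by signal.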
